A study of Mus musculus with 15 samples.

Results

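The mitochondrial chromosome of the mouse is annotated with 37 genes: 13 for proteins of the respiratory chain, 2 for the RNAs of the mitochondrial ribosome and 22 for transfer RNAs. All genes that the count tables placed on chrM were taken, 37 of the 55401 genes counted. RNA was sequenced from the hippocampus of 15 female mice aged 18 to 20 months. Of these, 8 were wild type (WT, genotype label Tg2576 -/-), and 7 were Tg2576 (label Tg2576 +/+), a line that carries a human APP transgene with the Swedish mutation under a prion promoter and models amyloid pathology. Mice received docosahexaenoic acid (DHA, an omega-3 fatty acid) at 450 mg/kg for 5 weeks or the sesame oil vehicle alone. The vehicle groups held 4 WT and 4 Tg2576 mice and the DHA groups 4 WT and 3 Tg2576 mice, each mouse with a library of its own. Total counts ran from 17372864 to 46596489 per mouse, and all 15 libraries shared a single lane.

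Mitochondrial DNA is a small circle present in many copies per cell. It is transcribed from both strands into long polycistronic RNAs, from which tRNAs lying between the other genes are released by cleavage. The protein genes encode core subunits of complexes I, III, IV and V, which are built together with subunits made from nuclear genes. In a bulk tissue such as hippocampus, fewer cells of a type and less RNA per cell cannot be told apart.

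Part of this chromosome has a nearly identical counterpart in the nucleus, which bore on what could be counted. A stretch of chromosome 1 (GRCm38, chr1:24611535-24616197, 4663 bases, minus strand) is annotated with 7 pseudogenes that run parallel to mt-Co1, mt-Co2, mt-Atp6, mt-Co3, mt-Nd3, mt-Nd4l and mt-Nd4. The copies of mt-Co2 (681 bases), mt-Atp6 (678 bases), mt-Co3 (783 bases) and mt-Nd4l (294 bases) were 100% identical over their annotated length. The first 60 bases of mt-Co2, the gene of a complex IV subunit (chrM:7013-7072, plus strand), and of its copy Gm28661 (chr1:24615506-24615565, minus strand), from the GENCODE transcripts, are shown because no letter distinguishes them:
mt-Co2: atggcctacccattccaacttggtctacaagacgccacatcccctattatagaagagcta
Gm28661: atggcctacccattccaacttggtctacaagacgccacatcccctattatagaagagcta

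The copy of mt-Nd3, a complex I gene, differed at a single base, T3C, counted from 1 at the 5′ end of the gene. The capital marks that base in mt-Nd3 (chrM:9459-9503, plus strand) and in Gm28438 (chr1:24613075-24613119, minus strand), a copy named here after its values were seen:
mt-Nd3: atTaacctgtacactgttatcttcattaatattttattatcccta
Gm28438: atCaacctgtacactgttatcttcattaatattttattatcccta

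For mt-Co1, the gene of the catalytic subunit of complex IV, the copy covered only the last 492 bases of the 1545, and it began with 6 substitutions (T1056A, C1057T, A1059G, A1060G, C1062A and A1066T), after which no base differed. Bases 1026 to 1086 of mt-Co1 (chrM:6353-6413, plus strand) and the start of Gm29216 (chr1:24616165-24616197, minus strand) show where the copy starts, with the substituted bases in capitals:
mt-Co1: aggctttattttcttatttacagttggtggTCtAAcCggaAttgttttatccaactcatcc
Gm29216: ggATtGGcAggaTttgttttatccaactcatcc

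Matches were counted over all annotated transcripts, those outside chromosome 1 included. Of all windows of 50 bases, 100% of those in mt-Co2, 99.9% in mt-Co3, 99.5% in mt-Atp6, 98.8% in mt-Nd4l and 98.0% in mt-Nd3 occurred unchanged in another annotated transcript. The share was 62.2% in mt-Nd4, 51.1% in mt-Co1, 8.19% in mt-Nd2, 7.61% in mt-Nd5 and 1.04% in mt-Rnr2, and 0% in mt-Rnr1, mt-Nd1, mt-Atp8, mt-Nd6 and mt-Cytb. The matches of mt-Nd2, mt-Nd5 and mt-Rnr2 came from genes other than the 7 copies, and in mt-Co1 411 windows matched Gm13340 and 430 matched Gm29216. With windows of 100 bases, the share in mt-Co1 was 30.8%, in mt-Nd4 60.8% and in mt-Nd2 3.19%, mt-Nd5 and mt-Rnr2 had 0%, and the 5 genes with the largest shares kept 97.6% to 99.9%. The read length is not given in the sources used here. The annotation left 233 bases without a gene between the copies of mt-Co2 and mt-Atp6 (chr1:24614652-24614884), and the corresponding stretch of chrM, chrM:7694-7926, which holds most of mt-Atp8, is also 233 bases long. The sequence of that chromosome 1 stretch was not analysed here. The counting program leaves out reads that map to several places by default, so a count of these genes rests on the reads that could be placed.

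The level of mitochondrial genes was compared per gene length, as CPM per kilobase (CPM being the count scaled by the TMM-adjusted total of the library to an equal total for every mouse), averaged over the 15 mice. mt-Co1 stood highest at 5316 CPM per kb, ahead of mt-Cytb (cytochrome b of complex III) at 3111 and mt-Nd1 (complex I) at 2874. The small-subunit rRNA gene mt-Rnr1 followed at 2406 and the large-subunit rRNA gene mt-Rnr2 at 2148. The remaining complex I genes of this upper range were mt-Nd4 at 1435, mt-Nd2 at 1204, mt-Nd6 at 813 and mt-Nd5 at 809 CPM per kb. mt-Nd6 and mt-Nd5 did not differ beyond their spread over the mice. The values of mt-Co1 and mt-Nd4 were those of genes in which 51.1% and 62.2% of the 50-base windows, and 30.8% and 60.8% of the 100-base windows, have a match elsewhere.

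The other protein genes lay far lower. mt-Co2 had 15.9 CPM per kb, mt-Nd3 9.78, mt-Co3 9.58, mt-Atp6 (a complex V subunit) 5.87, mt-Nd4l 1.74 and mt-Atp8 1.31. Together these 6 genes took 0.102% of all chrM counts, whereas the 7 protein genes with at least 1000 counts in every mouse took 77.7%, the 2 rRNA genes 22% and the 22 tRNA genes 0.212%. Of the 6 low genes, 5 were those with 98.0% to 100% of their windows found elsewhere, and the remaining gene, mt-Atp8, lies mostly opposite the unannotated stretch. mt-Atp8 (chrM:7766-7969) also overlaps the start of mt-Atp6 (chrM:7927-8607), and reads overlapping several genes were not counted by default. The part of either in its low count was not tested.

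**Figure D1:**
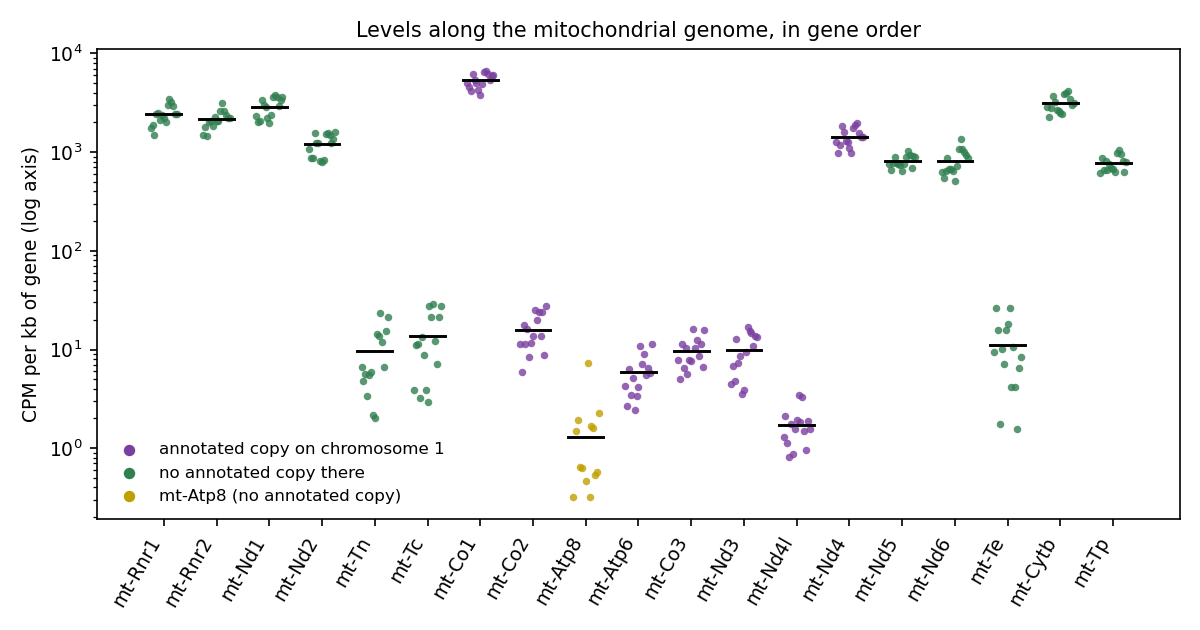
Level of chrM genes in order, as CPM per kilobase on a log axis, with a point per mouse and a bar at the mean of the 15 mice. Colours mark genes with an annotated chromosome 1 copy, genes without, and mt-Atp8. A gap separates mt-Tp at 773 from mt-Co2 at 15.9 CPM per kb.

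The copies themselves collected reads. mt-Co2 had 84 to 483 counts per mouse and Gm28661 had 96 to 465, with a ratio of copy to gene of 0.755 to 1.19. mt-Co3 had 81 to 316 counts and Gm28437 70 to 391, a ratio of 0.824 to 1.58. mt-Atp6 had 38 to 201 counts and Gm10925 74 to 483, a ratio of 1.73 to 3.69. The copy thus had about as many counts as the gene for mt-Co2 and mt-Co3 and more than the gene in every mouse for mt-Atp6. By contrast, Gm29216 had 250 to 1340 counts against 122038 to 357172 of mt-Co1, and Gm28439 had 32 to 402 against 23981 to 83674 of mt-Nd4.

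**Figure D2:**
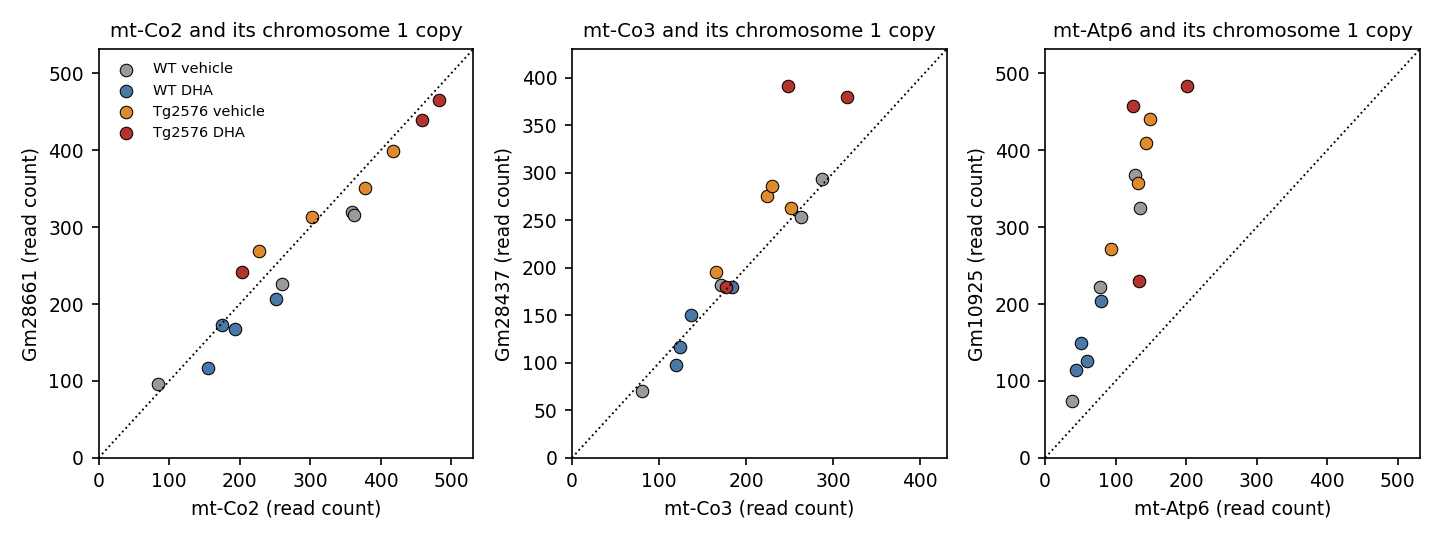
Read count of mt-Co2, mt-Co3 and mt-Atp6 in each mouse (x axis) against the count of the chromosome 1 copy, Gm28661, Gm28437 and Gm10925 (y axis), coloured by group. The dotted line marks equal counts, and all points of mt-Atp6 lie above it.

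tRNAs are short RNAs that libraries of messenger RNA capture poorly. Of these genes, 7 of the 22 had 0 counts in all 15 mice. A count of 0 allows up to 3 counts per library (0.0646 CPM in the deepest library and 0.17 CPM in the shallowest). Under 10 counts in every mouse were found for 17 of the 22. The counts were divided unevenly between the strands: the 14 tRNA genes on the plus strand had 119 counts over all mice and the 8 on the minus strand had 21906, 99.5% of the total. Most of the latter belonged to mt-Tp, with 750 to 2023 counts per mouse, and 951 were left without it. Since counting used no strand, reads of these minus-strand tRNA genes and of the RNA transcribed from the opposite strand cannot be told apart.

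The tRNA genes with enough counts to be tested were mt-Tp (proline), mt-Tn (asparagine), mt-Tc (cysteine) and mt-Te (glutamate). mt-Tp is the last gene before the control region (chrM:15356-15422), mt-Tn (chrM:5089-5159) and mt-Tc (chrM:5192-5257) flank a gap of 32 bases, and mt-Te (chrM:14071-14139) borders mt-Nd6. All are on the minus strand, and their sequences are given with the anticodon in capitals, to show which tRNAs the counts refer to:
mt-Tp: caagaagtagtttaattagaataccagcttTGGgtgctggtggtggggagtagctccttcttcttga
mt-Tn: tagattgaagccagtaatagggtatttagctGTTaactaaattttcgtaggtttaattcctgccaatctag
mt-Tc: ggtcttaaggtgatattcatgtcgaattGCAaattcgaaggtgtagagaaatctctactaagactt
mt-Te: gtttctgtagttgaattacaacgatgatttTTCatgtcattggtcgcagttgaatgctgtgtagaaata

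mt-Nd6 is the only protein gene on the minus strand, and its end overlaps the end of mt-Nd5 by 14 bases. The last 40 bases of mt-Nd5 (chrM:13526-13565, plus strand) and of mt-Nd6 (chrM:13552-13591, minus strand) show the overlap in capitals, because mt-Nd6 is a gene on which the genotype comparisons turned:
mt-Nd5: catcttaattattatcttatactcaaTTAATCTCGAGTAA
mt-Nd6: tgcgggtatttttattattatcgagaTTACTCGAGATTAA
Reads in such an overlap were not assigned to either gene by default. Reads of mt-Nd6 and of RNA antisense to it cannot be told apart.

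The share of chrM genes in the total count was 2.18%, 1.92%, 2.0% and 2.84% in WT vehicle mice 1 to 4 (2.23 ± 0.417%, SD, n = 4). The values of the WT mice given DHA were 2.51%, 2.31%, 2.20% and 1.94% (2.24 ± 0.236%, n = 4). Tg2576 vehicle mice had 2.21%, 3.19%, 3.38% and 3.18% (2.99 ± 0.527%, n = 4), and Tg2576 DHA mice had 2.75%, 2.72% and 2.81% (2.76 ± 0.0449%, n = 3). The vehicle groups overlapped, through Tg2576 vehicle mouse 1 and WT vehicle mouse 4. Without WT vehicle mouse 4 the WT vehicle mice, up to 2.18%, lay just below the lowest Tg2576 vehicle mouse, mouse 1 at 2.21%. Among DHA mice every Tg2576 mouse was above every WT mouse. The 95% Wilson interval of each share was at most 0.0147 percentage points wide, which covers counting error only and is far below the spread between mice. No test was made of this share, which is a sum over the genes tested singly below.

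**Figure D3:**
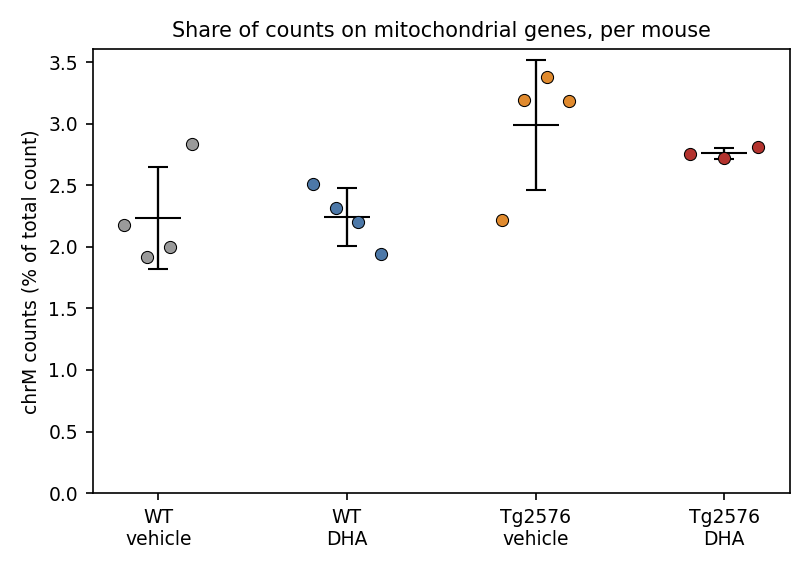
Share of chrM genes in the total count (%), with a point per mouse and the mean ± SD of each group. Tg2576 vehicle mouse 1, at 2.21%, lies among the WT mice, and the Tg2576 DHA mice lie between 2.72% and 2.81%.

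The genotypes were compared first under vehicle, to ask how mitochondrial RNA differed between Tg2576 and WT hippocampus without DHA. Of the 37 genes, 18 passed the filter on low counts: 12 protein genes, both rRNA genes and 4 tRNA genes. A gene was called at an unadjusted p under 0.01 in edgeR's quasi-likelihood test. In Tg2576 mice 7 of the 18 were higher and 0 lower, where 3.09% of the 19536 genes tested were called and 1.16% were called higher. By edgeR, 0 of the 18 reached an adjusted p (Benjamini-Hochberg over all genes) under 0.05, against 0.0154% of all genes, and the lowest was 0.101. The log2 fold change was above 0 for 17 of the 18, against 50% of all genes, and its median was 0.62, against 0.00030 for all genes. Over the 9 chrM genes with at least 1000 counts in every mouse the median was lower, 0.32, and 3 of the 9 were called. At an unadjusted p under 0.05, 12 of the 18 passed, against 10.7% of all genes. The 18 genes lie on shared polycistronic RNAs and were measured in the same mice. They are not independent, and these counts, here and under DHA, are not separate results. The 7 calls were 3 without Tg2576 vehicle mouse 3 (mt-Rnr1, mt-Rnr2 and mt-Nd6), 4 without WT vehicle mouse 1 (these and mt-Tn) and 10 without Tg2576 vehicle mouse 1, where mt-Nd1, mt-Nd4, mt-Co1, mt-Cytb and mt-Tp also passed and mt-Atp6 and mt-Tc did not. Without WT vehicle mouse 4, mt-Nd1, mt-Co1 and mt-Cytb passed, and without WT vehicle mouse 3, mt-Co2 and mt-Co3.

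Both rRNA genes were higher in Tg2576 vehicle mice. mt-Rnr2 (ENSMUSG00000064339.1, chrM, 1094 to 2675), the RNA of the large ribosomal subunit, had 2337, 2860, 2290 and 3212 CPM in WT vehicle mice 1 to 4 and 3276, 4085, 4982 and 4149 CPM in Tg2576 vehicle mice 1 to 4. All Tg2576 vehicle mice were above all WT vehicle mice. The log2 fold change was 0.62 ± 0.12 (SE), 1.54-fold, with adjusted p = 0.101 by edgeR. Its unadjusted edgeR p = 9.79e-05 stood beside p = 0.0286 in an exact permutation test of the log2 CPM (two-sided, n = 4 and 4), the smallest that 4 against 4 allows.

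mt-Rnr1 (ENSMUSG00000064337.1, chrM, 70 to 1024), the RNA of the small subunit, had 1683, 1799, 1411 and 2329 CPM in WT vehicle mice and 1921, 2851, 3282 and 3038 CPM in Tg2576 vehicle mice. WT vehicle mouse 4 overlapped Tg2576 vehicle mouse 1, and the other Tg2576 mice were above all WT mice. It differed by 0.62 ± 0.15 on the log2 scale, with edgeR p = 0.000888, adjusted p = 0.177 and exact permutation p = 0.0571. The calls of mt-Rnr1, mt-Rnr2 and mt-Nd6 held under all 12 other settings and with any of the 15 mice left out.

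Of the 7 complex I genes, 2 were called, mt-Nd6 and mt-Nd3. mt-Nd6 (ENSMUSG00000064368.1, chrM, 13552 to 14070) had 323, 282, 333 and 448 CPM in WT vehicle mice and 372, 562, 696 and 553 CPM in Tg2576 vehicle mice. The groups overlapped in WT mouse 4 and Tg2576 mouse 1. Its level was higher in Tg2576 by a log2 fold change of 0.66 ± 0.16, with edgeR p = 0.000954, adjusted p = 0.177 and exact permutation p = 0.0571.

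mt-Nd3 (ENSMUSG00000064360.1, chrM, 9459 to 9806) had 1.55, 2.37, 1.66 and 4.42 CPM in WT vehicle mice and 3.29, 5.88, 5.37 and 5.08 CPM in Tg2576 vehicle mice, from 24 to 182 counts over all 15 mice. WT mouse 4 lay within the Tg2576 range and the other WT mice below it. The difference was 0.98 ± 0.33 on the log2 scale, with edgeR p = 0.00922, adjusted p = 0.317 and exact permutation p = 0.0571. This call was lost without the robust option, with 1 surrogate variable, in a fit of only the groups compared, and without WT vehicle mouse 1, 2 or 3, Tg2576 vehicle mouse 2, 3 or 4, or Tg2576 DHA mouse 2 or 3.

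The other complex I genes did not pass. The log2 fold change was 0.44 ± 0.18 for mt-Nd1 (adjusted p = 0.399, edgeR), 0.31 ± 0.23 for mt-Nd2 (adjusted p = 0.667), 0.32 ± 0.20 for mt-Nd4 (adjusted p = 0.595) and 0.23 ± 0.11 for mt-Nd5 (adjusted p = 0.477). For mt-Nd4l, with 8 to 23 counts per mouse, it was 0.92 ± 0.43 (adjusted p = 0.461), and 0.35 with the counts of its copy added. Tg2576 vehicle mouse 1 lay inside the WT vehicle range for mt-Nd1, mt-Nd4 and mt-Nd5, below it for mt-Nd2 (870 CPM) and above it for mt-Nd4l (1.02 CPM), whereas Tg2576 mice 2 to 4 had 3428 to 3596 CPM of mt-Nd1, above all WT vehicle mice. mt-Nd5 had 1397, 1195, 1421 and 1629 CPM in WT vehicle mice and 1397, 1638, 1881 and 1711 CPM in Tg2576 vehicle mice. mt-Nd4 had 1742, 1345, 1634 and 2517 CPM against 1361, 2412, 2586 and 2698 CPM. In both genes WT mouse 4 was the highest of its group and Tg2576 mouse 1 the lowest.

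The gene of complex III, mt-Cytb, had 3287, 2587, 3167 and 4249 CPM in WT vehicle mice and 2781, 4434, 4567 and 4802 CPM in Tg2576 vehicle mice. Tg2576 mouse 1 was the second lowest of the 8, and the other Tg2576 mice were above all WT mice. The difference, 0.32 ± 0.16 on the log2 scale (adjusted p = 0.489, edgeR), did not pass.

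In complex IV, none of the genes passed the threshold of 0.01. mt-Co1 had 7692, 6972, 6437 and 9509 CPM in WT vehicle mice and 7501, 9988, 10340 and 9646 CPM in Tg2576 vehicle mice, a log2 fold change of 0.29 ± 0.13 (adjusted p = 0.439, edgeR). mt-Co2 had 7.73, 4.06, 12.2 and 7.82 CPM against 17.1, 13.5, 16.2 and 9.27 CPM, a log2 fold change of 0.81 ± 0.35 (adjusted p = 0.426). mt-Co3 had 6.18, 3.92, 8.89 and 5.14 CPM against 12.7, 8.11, 9.88 and 6.75 CPM, which is 0.63 ± 0.28 on the log2 scale (adjusted p = 0.435). The groups overlapped for all of them, by the highest WT and the lowest Tg2576 mouse for mt-Co2.

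In complex V, mt-Atp6 (ENSMUSG00000064357.1, chrM, 7927 to 8607) was called, with 2.89, 1.84, 4.29 and 2.35 CPM in WT vehicle mice and 7.44, 4.82, 6.15 and 3.78 CPM in Tg2576 vehicle mice. Only WT mouse 3 and Tg2576 mouse 4 overlapped. It differed by 0.95 ± 0.30 on the log2 scale, with edgeR p = 0.00584, adjusted p = 0.29 and exact permutation p = 0.0571. The call was lost without WT vehicle mouse 1, 2 or 4 or Tg2576 vehicle mouse 1 or 3. mt-Atp8 was not tested: it had 3, 0, 9 and 13 counts in WT vehicle mice, 3, 4, 0 and 2 in WT DHA mice, 26, 2, 8 and 8 in Tg2576 vehicle mice and 3, 4 and 12 in Tg2576 DHA mice. The counts of the groups overlapped and were too few to compare.

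The genotype differences of genes with a copy stood beside those of the copies themselves. Under vehicle, Gm28661 (copy of mt-Co2) and Gm10925 (copy of mt-Atp6) passed p under 0.01 in edgeR, higher in Tg2576 by 0.96 and 1.08 on the log2 scale. Gm28437 (mt-Co3) with 0.89, Gm29216 (mt-Co1) with 0.77 and Gm28439 (mt-Nd4) with 1.16 did not pass. Because a gene and its copy share nearly all of their sequence here, mt-Atp6, mt-Co2, mt-Co3, mt-Nd3 and mt-Nd4l are uncertain as separate genes. With the counts of the copies added to their genes, an alternative chosen after seeing the data, the log2 fold changes under vehicle were 1.05 for mt-Atp6, 0.88 for mt-Co2, 0.77 for mt-Co3, 1.01 for mt-Nd3 and 0.35 for mt-Nd4l, the last in place of 0.92. The number of chrM genes called was 7 with this setting too.

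Of the 4 tRNA genes tested, mt-Tn and mt-Tc were higher in Tg2576 vehicle mice, at very low counts. mt-Tn had 22, 7, 12 and 8 counts in WT vehicle mice and 18, 30, 39 and 21 counts in Tg2576 vehicle mice, or 0.474, 0.339, 0.405 and 0.241 CPM against 1.02, 0.970, 1.68 and 0.854 CPM. The groups did not overlap in CPM. The difference was 1.61 ± 0.44 on the log2 scale, with edgeR p = 0.00195, adjusted p = 0.207 and exact permutation p = 0.0286. It missed the threshold without Tg2576 vehicle mouse 3.

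mt-Tc had 12, 15, 22 and 7 counts in WT vehicle mice and 32, 44, 44 and 20 counts in Tg2576 vehicle mice, without overlap in CPM. Its log2 fold change was 1.65 ± 0.53, with edgeR p = 0.00629, adjusted p = 0.29 and exact permutation p = 0.0286, and the call was lost without WT vehicle mouse 1 or 4 or Tg2576 vehicle mouse 1, 2 or 3. mt-Tp, with by far the most counts among the tRNA genes, had 41.5, 58.6, 44.6 and 54.2 CPM in WT vehicle mice and 42.6, 65.4, 71.0 and 64.0 CPM in Tg2576 vehicle mice, a log2 fold change of 0.29 ± 0.14 (adjusted p = 0.477, edgeR). mt-Te, with 3 to 38 counts over all mice, had -0.25 ± 0.69 (adjusted p = 0.927). In all, 3 of the 18 chrM genes had vehicle groups without overlap (mt-Rnr2, mt-Tn and mt-Tc), against 5.16% of all genes.

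**Figure D4:**
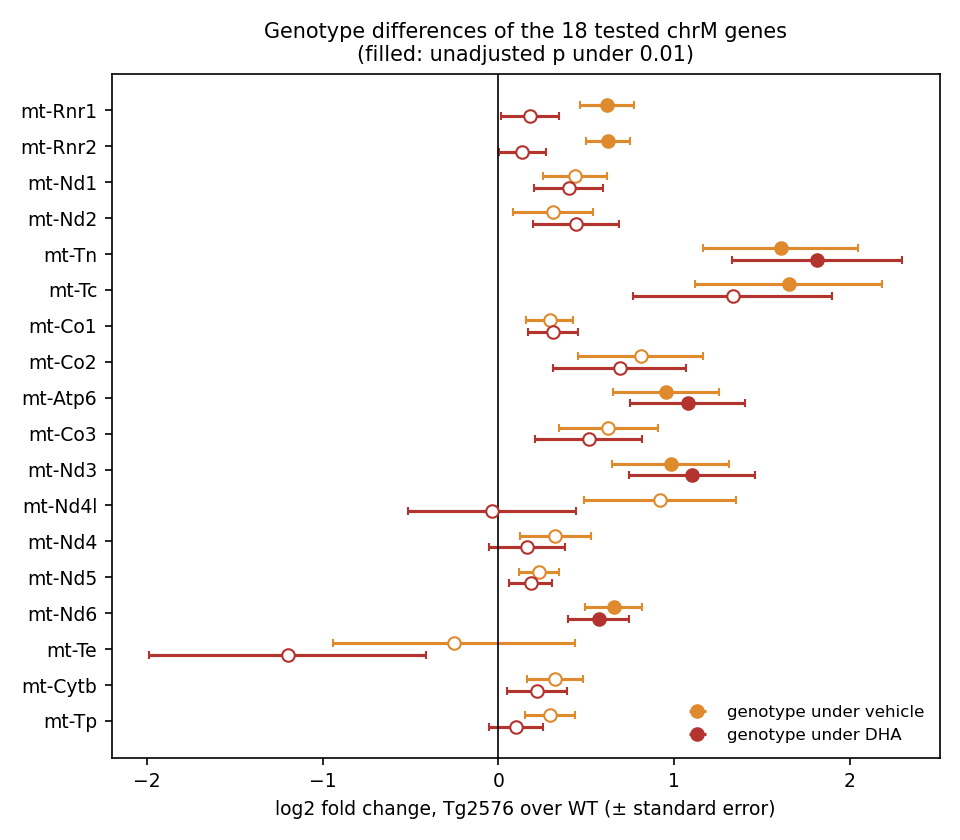
Log2 fold change of Tg2576 over WT with its standard error for the 18 chrM genes tested, under vehicle and under DHA. Filled points passed p under 0.01 in edgeR (7 under vehicle, 4 under DHA), and 17 and 16 of the 18 lie above 0.

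Next, the genotypes were compared in mice given DHA. Of the 18 genes, 4 were called, all higher in Tg2576 (mt-Tn, mt-Atp6, mt-Nd6 and mt-Nd3), where 1.75% of all genes were called and 1.06% were called higher. By edgeR 0 had an adjusted p under 0.05, against 0.00512% of all genes, and the lowest was 0.536. At an unadjusted p under 0.05, 6 of the 18 passed, against 6.86% of all genes. The median log2 fold change was 0.36 over the 18 genes and -0.0035 over all genes, and 16 of the 18 were above 0, against 49.3% of all genes. Over the 9 chrM genes with at least 1000 counts in every mouse the median was 0.22, and 1 of the 9 was called, mt-Nd6. The WT DHA and Tg2576 DHA groups did not overlap for 4 of the 18, against 8.56% of all genes. These were the same 4 genes, called on the same values, so the lack of overlap adds nothing separate to their calls. For each of them the exact permutation p was 0.0571, the smallest that 4 against 3 allows.

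mt-Nd6 had 351, 353, 337 and 265 CPM in WT DHA mice and 515, 485 and 454 CPM in Tg2576 DHA mice. Every Tg2576 mouse was above the highest WT mouse. The difference was 0.57 ± 0.17 on the log2 scale (adjusted p = 0.548, edgeR), and the call was lost without WT DHA mouse 4, Tg2576 DHA mouse 1 or Tg2576 DHA mouse 2.

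mt-Atp6 had 3.48, 1.66, 2.28 and 2.83 CPM in WT DHA mice and 4.46, 3.93 and 7.78 CPM in Tg2576 DHA mice (log2 fold change 1.08 ± 0.33, adjusted p = 0.542, edgeR). mt-Nd3 had 2.55, 3.02, 1.24 and 1.34 CPM against 3.78, 4.82 and 4.69 CPM (1.1 ± 0.36, adjusted p = 0.56). mt-Tn had 9, 13, 3 and 3 counts against 13, 37 and 39 (1.81 ± 0.48, adjusted p = 0.536). These are complex V, complex I and tRNA genes, and all 3 had few counts. Without Tg2576 DHA mouse 3, mt-Nd6 was called and these 3 were not. The mt-Atp6 call was also lost without WT DHA mouse 2, and that of mt-Nd3 without Tg2576 DHA mouse 2. Without WT DHA mouse 3 the calls were 2, mt-Tn and mt-Nd6, and without WT DHA mouse 4 they were 2, mt-Tn and mt-Atp6.

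Neither rRNA gene passed in this comparison. mt-Rnr2 had 3297, 2911, 3600 and 3236 CPM in WT DHA mice and 3726, 3482 and 3532 CPM in Tg2576 DHA mice, a log2 fold change of 0.13 ± 0.13 (adjusted p = 0.881, edgeR). mt-Rnr1 had 2357, 2006, 2269 and 2095 CPM against 2770, 2345 and 2308 CPM, which is 0.18 ± 0.17 on the log2 scale (adjusted p = 0.864). The groups overlapped for both.

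The remaining protein genes had log2 fold changes from -0.04 ± 0.48 for mt-Nd4l to 0.69 ± 0.38 for mt-Co2, and mt-Co1, with 5855 to 8330 CPM in WT and 8319 to 9225 CPM in Tg2576 mice, had 0.31 ± 0.14 (adjusted p = 0.713, edgeR). In complex I, mt-Nd1 had 0.40 ± 0.20, mt-Nd2 0.44 ± 0.24, mt-Nd4 0.16 ± 0.22 and mt-Nd5 0.18 ± 0.12. mt-Nd1 had 2871, 2759, 2116 and 1868 CPM in WT and 2814, 3211 and 3488 CPM in Tg2576 mice, so that 1 WT mouse lay above the lowest Tg2576 mouse. mt-Cytb of complex III had 0.22 ± 0.17 and mt-Co3 of complex IV 0.51 ± 0.30. Among the tRNA genes, mt-Tc had 1.33 ± 0.57 (adjusted p = 0.69), mt-Tp 0.10 ± 0.15 and mt-Te -1.20 ± 0.79. Without Tg2576 DHA mouse 1 mt-Tc passed p under 0.01, with a log2 fold change of 1.73, and without Tg2576 DHA mouse 2 mt-Co2 passed, with 1.05. Of the copies, Gm28661 and Gm28439, with log2 fold changes of 0.92 and 1.80, passed the threshold, and Gm10925 (1.12), Gm28437 (0.95) and Gm29216 (0.74) did not.

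The place of mt-Nd6 within the mitochondrial RNA can be described by its share of all chrM counts, which was 1.48%, 1.41%, 1.69% and 1.55% in WT vehicle mice and 1.71%, 1.81%, 2.07% and 1.75% in Tg2576 vehicle mice. With DHA it was 1.36%, 1.51%, 1.54% and 1.34% in WT mice and 1.91%, 1.79% and 1.63% in Tg2576 mice. In both comparisons every Tg2576 mouse was above every WT mouse, and among the 9 chrM genes with at least 1000 counts in every mouse this was so for mt-Nd6 alone. The shares of the 9 genes sum to nearly all chrM counts, so they depend on each other, and no test was made of them. The ratio of mt-Nd6 to mt-Nd5 counts was 0.225 to 0.275 in the WT mice and 0.267 to 0.405 in the Tg2576 mice.

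**Figure D5:**
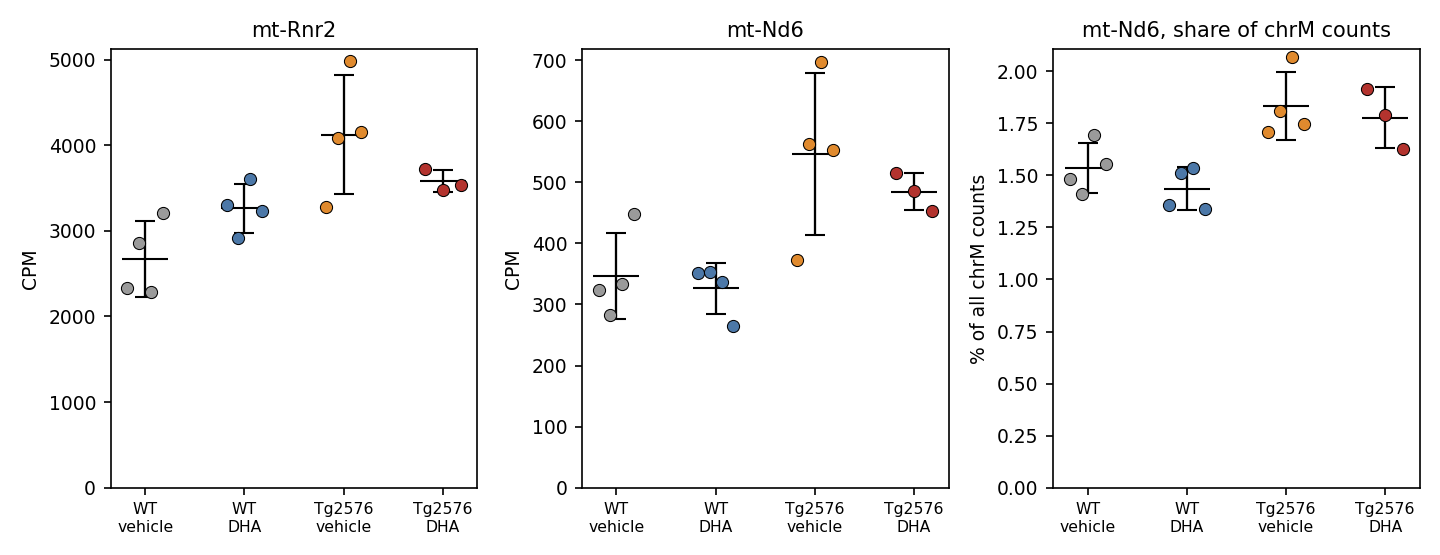
Level of mt-Rnr2 and of mt-Nd6 (CPM) and share of mt-Nd6 in all chrM counts (%), with a point per mouse and the mean ± SD of each group. The Tg2576 groups lie above their WT groups without overlap in the share of mt-Nd6, and mt-Rnr2 overlaps only between the DHA groups among the genotype comparisons.

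DHA was compared with vehicle within each genotype, over the same vehicle and DHA mice as above. In WT mice 0 of the 18 chrM genes passed p under 0.01 in edgeR, where 1.38% of all genes were called. DESeq2 and limma-voom also called 0. At p under 0.05, 1 gene passed, against 5.92% of all genes: mt-Rnr2, with a log2 fold change of 0.29 ± 0.12 (adjusted p = 0.827, edgeR). As given above, its CPM ran from 2290 to 3212 in WT vehicle mice and from 2911 to 3600 in WT DHA mice, and the groups overlapped. For mt-Rnr1 the difference was 0.27 ± 0.15 on the same scale (adjusted p = 0.863). The 12 protein genes had a median log2 fold change of -0.08, against -0.013 over all genes, and their lowest unadjusted p in edgeR was 0.433. Without WT vehicle mouse 4, mt-Rnr2 passed the threshold of 0.01.

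In Tg2576 mice 0 of the 18 passed p under 0.01 or under 0.05 in edgeR, against 0.353% and 3.16% of all genes. DESeq2 and limma-voom called 0 as well. mt-Rnr2 differed by -0.20 ± 0.13 on the log2 scale (adjusted p = 0.999), with 3276 to 4982 CPM in vehicle and 3482 to 3726 CPM in DHA mice, and mt-Rnr1 had -0.16 ± 0.17 (adjusted p = 0.999). The log2 fold changes of the 18 genes ran from -0.99 to 0.04 with a median of -0.15, against -0.0039 over all genes, and 1 of the 18 was above 0, against 49.1% of all genes. The lowest unadjusted p in edgeR was 0.0798, that of mt-Tp. Without Tg2576 vehicle mouse 1, mt-Tp passed, lower with DHA. The vehicle and DHA groups overlapped for all 18 genes in each genotype, where they did not overlap for 5.02% of all genes in WT and 3.21% in Tg2576 mice.

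The interaction asked whether the DHA difference depended on genotype. By edgeR, 0 of the 18 passed p under 0.01, where 0.829% of all genes did, and 1 passed p under 0.05, against 5.12% of all genes. This was mt-Rnr2, with an interaction of -0.49 ± 0.18 on the log2 scale (adjusted p = 0.845), and mt-Rnr1 had -0.44 ± 0.23 (adjusted p = 0.845). DESeq2 called mt-Rnr2 and limma-voom called 0. mt-Rnr2 passed also without WT vehicle mouse 4, and both rRNA genes passed without Tg2576 vehicle mouse 1. The interactions of the 12 protein genes ran from -0.96 to 0.13 on the log2 scale, and their lowest unadjusted p in edgeR was 0.157.

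The nuclear partners of these genes were counted in the same 5 comparisons. Of the nuclear-encoded subunits, 0 of 38 of complex I, 0 of 4 of complex II, 0 of 9 of complex III, 0 of 12 of complex IV and 0 of 16 tested of complex V passed p under 0.01 in any of the 5 comparisons by edgeR, where 0.353% to 3.09% of all genes passed. At these shares a list of this size holds few or no calls, so the lack of calls does not show that the subunits were unchanged. Their median log2 fold changes under vehicle were 0.18, 0.08, 0.14, 0.20 and 0.18 in this order. Above 0 were 35 of 38, 3 of 4, 8 of 9, 11 of 12 and 15 of 16, against 50% and a median of 0.00030 over all genes. Under DHA the medians between the genotypes were -0.03, -0.01, -0.04, -0.05 and -0.09. Here 13 of 38, 2 of 4, 3 of 9, 3 of 12 and 4 of 16 were above 0, against 49.3% of all genes. For DHA in WT mice 33 of 38, 3 of 4, 7 of 9, 11 of 12 and 16 of 16 were above 0. The medians in this comparison were 0.12, 0.09, 0.12, 0.14 and 0.14. Over all genes the median was -0.013, so at most 50% of all genes were above 0. For DHA in Tg2576 mice 4 of 38, 2 of 4, 1 of 9, 0 of 12 and 2 of 16 were, against 49.1% of all genes. No test was made of these directions.

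The genes that express and copy mitochondrial DNA were counted in the same way between the genotypes. Of 77 mitochondrial ribosomal protein genes tested, 1 passed under vehicle, where 3.09% of all genes were called and 1.16% called higher. This was Mrps30, of the small subunit, higher in Tg2576 by 0.32 on the log2 scale (adjusted p = 0.304, edgeR). Of the 77, 66 were above 0 under vehicle, against 50% of all genes, with a median of 0.09. With DHA 0 of the 77 passed, where 1.75% of all genes were called. There 26 were above 0, against 49.3% of all genes, with a median of -0.04. Of 18 genes of mtDNA transcription and replication, 0 passed under vehicle, and with DHA 1 was higher and 2 lower in Tg2576, where 1.75% of all genes were called. The lower were Twnk, the mitochondrial DNA helicase, with a log2 fold change of -0.36 (adjusted p = 0.536), and Polg, the catalytic subunit of the mitochondrial DNA polymerase, with -0.29 (adjusted p = 0.56). The higher was Mterf3 (0.38, adjusted p = 0.565), named after its values were seen. None of 24 genes tested of mitochondrial RNA processing and none of 9 biogenesis regulators passed in either genotype comparison. At the shares called over all genes, lists of this size hold few or no calls. For DHA in WT mice, 1 of the 18 genes of mtDNA transcription and replication passed, where 1.38% of all genes were called. This was Tfb2m, a mitochondrial transcription factor, lower with a log2 fold change of -0.57 (adjusted p = 0.625, edgeR). None of the ribosomal protein, RNA processing or biogenesis genes passed there.

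Markers of cell types were counted in the same genotype comparisons, where 3.09% of all genes were called under vehicle and 1.75% under DHA. Of 12 genes of hippocampal neurons, 4 were lower in Tg2576 under vehicle and 2 under DHA and 0 were higher, with summed levels that overlapped, under vehicle of 10339 to 12185 CPM in WT and 9818 to 10952 in Tg2576 mice, and with DHA of 10577 to 12405 and 9070 to 10777 CPM. Of 10 microglia genes, 2 were higher under vehicle and 7 under DHA (summed 290 to 326 and 268 to 430 CPM in WT and Tg2576 vehicle mice, 239 to 293 and 323 to 456 CPM with DHA). Astrocyte genes gave 1 call of 7 in each comparison, Gfap, higher in Tg2576. The 12 choroid plexus markers summed under vehicle to 97.5 to 3806 CPM in WT and 147 to 3289 in Tg2576 mice, with 0 called. With DHA they summed to 65.9 to 6011 CPM (median 263) in WT and 3234 to 5278 CPM (median 3385) in Tg2576 mice. Between these groups 0 were called and all 12 were above 0, against 49.3% of all genes, with a median log2 fold change of 1.25. For DHA against vehicle this median was 1.08 in Tg2576 and -0.26 in WT mice. Endothelium gave 1 call of 7 under vehicle (Ly6c1, higher), and the genotype comparisons gave 0 calls for oligodendrocytes and red blood cells. Nuclear RNAs without a poly(A) tail, a sign of how strictly mRNA was selected, summed to 1.27 to 1.96 CPM in WT and 1.30 to 3.55 CPM in Tg2576 vehicle mice, and with DHA to 1.45 to 4.67 and 1.08 to 11.3 CPM. Of these, 3 were tested and 0 called in either genotype comparison, and Rn7sk was called for DHA in Tg2576 mice, higher by 1.87 on the log2 scale (1.05 against 3.88 CPM, adjusted p = 0.999, edgeR). The part of these markers in the chrM results was not tested. For the label hippocampus, all 12 neuronal genes, among them Prox1 of the dentate gyrus and Wfs1 of CA1, were present in every mouse, with at least 979 counts.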

How the data were processed

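Poly(A)-selected RNA of 15 hippocampi was sequenced, and the authors deposited whole-number read counts per gene, made, per the submitters' processing notes, with FastQC 0.11.8, STAR 2.6.1c and featureCounts 1.6.0 on GRCm38. Per the file headers, reads over exons were counted per GENCODE gene with no strand, multi-mapping or overlap option set, so the defaults applied (unstranded, reads mapping to several places or overlapping several genes not counted). The kit is a stranded mRNA kit in the study's methods and a SMARTER kit in the labels. Replicates are mice with a library each.

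Counts were joined by gene (55401 genes, 55141 with a symbol), filtered with filterByExpr (minimum count 10), scaled by TMM (factors 0.961 to 1.03) and fitted with edgeR 4.0.16 (quasi-likelihood, robust, a coefficient per group, R 4.3.3) over all 4 groups, the biological coefficient of variation being 20.1%. The 5 comparisons were genotype under vehicle and under DHA, DHA in each genotype, and their interaction. A gene was called at p under 0.01, the threshold of the study's methods, and p was adjusted by Benjamini-Hochberg over the 19536 genes tested. The standard error is the log2 fold change over the root of F, and log2 CPM used a prior count of 2. A single gene was also tested by an exact permutation of log2 CPM. The script was tested on simulated data. Nuclear copies were aligned between transcripts of GENCODE (same assembly), with windows of 50 bases searched on both strands.

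All protein and rRNA genes of chrM were named, with the 3 tRNA genes of highest mean CPM and any with p under 0.01, the 2 lowest p under 0.01 of each mitochondrial list, and the 5 copies with the highest mean count. Members and lists were chosen with earlier results of these data known. Alternatives were DESeq2 1.42.0, limma-voom (limma 3.58.1), DESeq2 size factors, no TMM, other filters, no robust option, 1 surrogate variable (sva 3.50.0), only the groups compared, a replicate term, and leaving out each mouse. The share was also computed without rRNA and against nuclear counts. Intervals (95%, Wilson) and floors (3 counts) cover counting error only.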

Additional observations from a re-analysis of the deposited data

Results flagged for a closer look

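In 5 of 69 groups of 4 mice examined, a single mouse lay farther from the others of its group than Dixon's criterion allows, which chance exceeds in about 1 in 20 groups.

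Tg2576 vehicle mouse 1, the library with the lowest total count (17372864), stood apart in 3 measures. It had 2261 CPM of mt-Nd1 where the other Tg2576 vehicle mice had 3428 to 3596, 870 CPM of mt-Nd2 where the others had 1541 to 1614, and a chrM share of 2.21% of the total count where the others had 3.18% to 3.38%. The share includes mt-Nd1 and mt-Nd2 and comes from the same library, so these 3 are not separate deviations. In WT vehicle mouse 2, the rRNA genes made up 23.3% of the chrM counts, against 18.4% to 19.2% in the other WT vehicle mice. In WT vehicle mouse 4, the ratio of mt-Nd6 to mt-Nd5 counts was 0.275, against 0.232 to 0.236.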

How the results depend on the processing

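Leaving out 1 mouse at a time, the number of chrM genes called was 3 to 10 for genotype under vehicle (lowest without Tg2576 vehicle mouse 3, highest without Tg2576 vehicle mouse 1, and 4 without WT vehicle mouse 1), 1 to 4 for genotype under DHA, 0 to 1 for DHA in WT, 0 to 1 for DHA in Tg2576 and 0 to 2 for the interaction. With all mice kept, the counts were 5 to 9 and 3 to 4 for the genotype comparisons, the 5 under a minimum of 10 counts in every mouse, which removes tRNA genes. For the interaction, DESeq2 and the fit with no filter each called 1, mt-Rnr2. The mt-Te log2 fold change under vehicle ranged from -1.05 to 0.30, and that of mt-Nd4l between genotypes under DHA from -0.26 to 0.19, with 0.013 by limma-voom and 0.025 with the copy counts added (a setting chosen after seeing the data), in place of -0.04. The cause was not tested. For the 12 protein genes in the DHA comparisons and the interaction, none of them called, 11 of 417 values with all mice kept changed sign, up to 0.07 in size, as did 73 of 540 with 1 mouse left out, up to 0.33 in size. With the replicate block, 9 genes were called for genotype under vehicle, mt-Co2 and mt-Co3 added, 4 under DHA and 0 in the other comparisons. Only 4 of 21 pairs of mice with the same number had deviations correlated above 0.1 (-0.244 to 0.213), and pairs with other numbers ran from -0.235 to 0.230. The data thus do not show that the numbers pair the mice. Such correlations cannot exclude a shared litter, batch or day, which is not given. Without the rRNA genes, the group means of the chrM share were 1.80% and 2.31% in WT and Tg2576 vehicle mice and 1.71% and 2.16% in the DHA mice. Groups of 3 or 4 mice and the few counts of mt-Atp6, mt-Nd3, mt-Nd4l and the tRNA genes other than mt-Tp limit what could be detected.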
